A study of Mus musculus with 6 samples.

Results

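DNA replication and nucleotide synthesis genes were followed in the established mouse macrophage line RAW264.7, which divides in culture, after it was exposed to a plant polysaccharide. The set holds 44 genes chosen by name: every probe whose gene name in the scanner files equals a member was taken and joined by its probe name to the authors' table. All 44 genes were on the array, read by 53 probes, and all passed the filter on dim probes, among 15061 named genes tested. By role, 12 serve origin licensing, 14 the replication fork, 10 the polymerases with primer removal and ligation, 5 deoxynucleotide supply and 3 the chromatin behind the fork. The choice of members rested on gene names and not on measured values, although it was made with earlier results of these data known.

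The control cells stayed in DMEM medium, and the treated cells received AEPS, a polysaccharide from the root of Actinidia eriantha, at 50 µg/ml. Cells of both groups were taken at 4 h, came from the same line and carried no other agent or allele named in the labels. Cy3-labelled RNA was read on 1-colour Agilent arrays, with 3 samples per group. Within each group the scanner files labelled replicates 1 and 2 held the same values and were counted as 1 sample, so the scanner values rest on 4 distinct arrays, 2 per group, while the authors' table holds 3 distinct columns per group. The array with the first control and the first AEPS sample form slide 1, and the remaining pair form slide 2. The labels name no separate cultures, so the p-values below measure the spread between these samples, which may be technical, and so few arrays leave every value imprecise. Between 55.4% and 58.7% of the non-control spots were well above background on each array, no spot was saturated, and arrays of 1 group correlated at 0.989 to 0.991 (Pearson) over the tested features. Of 10 macrophage markers 9 were above background on all 4 arrays and Mertk on none. Of the markers of other cells, 3 of 5 for T cells, 1 of 5 for fibroblasts, 1 of 4 for B cells and 0 of 4 for epithelial cells were above background on all 4.

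A chromosome is copied from origins that are prepared in G1 phase. The origin recognition complex (ORC) marks the DNA, and Cdc6 and Cdt1 load the ring-shaped MCM2-7 helicase there, a step called licensing that geminin restrains by binding Cdt1. In S phase Cdc45 and the GINS complex join MCM2-7, the helicase opens the fork, RPA covers the bared single strands, DNA polymerase alpha-primase lays primers, the RFC clamp loader places the PCNA ring, and polymerases delta and epsilon extend the strands. Ribonucleotide reductase, thymidylate synthase, thymidine kinase and dUTPase supply or guard the deoxynucleotides. Many of these genes are transcribed at the start of S phase under E2F factors, and macrophages activated by microbial products are known to slow their division.

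The probes that carry the main results are shown first, because several genes were read by more than 1 probe and these did not all move alike. Each line gives the first 30 bases of a 60-base probe, 5′ to 3′. The scanner files place the probes on mouse build mm9.
Tk1 probe, chr11:117676845-117676904, minus strand: cctcagctcttagtgagccacttttcttgt
Cdc6 brighter probe, chr11:98782986-98783045, plus strand: tgtaaagaactttgaagtttagaaggatga
Cdc6 dimmer probe, chr11:98785169-98785228, plus strand: ttaagaaccagattaagtttccatagtgtc
Mcm5 probe, chr8:77651350-77651410, plus strand: tggaaatgtactttggtctgttggctcata
Gmnn brighter probe, chr13:24843715-24843774, minus strand: ttgtcagtgtcagatataaactgtatatta
Gmnn dimmer probe, chr13:24854006-24854065, plus strand: aggacaaaagagactctcactagcggcaaa
Uhrf1 brighter probe, chr17:56462770-56462829, plus strand: tgtgtctcatggaaactaaaccatttacta
Uhrf1 dimmer probe, chr17:56451668-56452321, plus strand: agctatacggcaacatcaggctcttgaatg
For 43 member probes the RefSeq table gives the strand of the gene, and all 43 probes lay on that strand. The dimmer Gmnn probe was the only 1 of the 53 on the strand opposite to its gene's brightest probe, 10291 bases away, and is not taken as a reading of Gmnn mRNA here. The dimmer Uhrf1 probe spans 654 bases of the genome with 60 bases of sequence and therefore crosses a splice junction.

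The comparison asked which of these transcripts differed after 4 h of AEPS. Tk1, Cdc6 and Mcm5 fell, to 36.7%, 37.7% and 54.4% of control, and were the 3 of 44 members past an adjusted p of 0.05 by limma on the scanner values. That is 6.82% of the members, beside 7.11% of all 25930 tested features called in either direction and 2.94% called lower, and no member was called higher (4.17% of all features). With the slide as a replicate block, which uses that each slide holds 1 control and 1 AEPS array, 18 members passed (40.9%, beside 29.8% of all features), 15 lower and 3 higher. These are 34.1% and 6.82% of the members, beside 16.8% and 13.0% of all features. This block fit leaves 1 residual degree of freedom per gene, so its p-values lean on the spread that limma shares over all features. The standard errors of Tk1, Mcm10 and Chaf1b in it were all 0.0636. In the authors' table, with 3 columns per group, 22 members passed (50.0%, beside 33.4% of all features), 18 lower and 4 higher, or 40.9% and 9.09%, beside 16.4% and 17.0%. The groups of 3 table columns did not overlap for 32 members, 22 lower and 10 higher, where 48.0% of all features did not overlap, 24.7% lower and 23.4% higher. With the replicate number as a block in the table, 32 members passed, 21 lower and 11 higher, beside 49.8% of all features, 26.3% lower and 23.5% higher. They held the 22 and 10 more: Mcm3, Lig1 and Uhrf1 lower and Orc1, Gins3, Rfc1, Rpa3, Pola1, Prim2 and Rrm1 higher (adjusted p between 0.0104 and 0.0492). Without any 1 of the 6 table columns, and with no block, 17 to 19 members passed. The 18 members called with the block were all among the 22 called in the table, each in the same direction, but 2 of the 3 pairs of table columns come from the scanner arrays. In bulk RNA, fewer cells holding a transcript and less of it per cell cannot be told apart. Without any 1 of the 4 arrays no member passed by limma (7 to 14 did at an unadjusted p below 0.05), and the changes of Tk1, Cdc6 and Mcm5 stayed below 0 throughout.

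The median of the whole set lay near that of all features. Its median log2 change was -0.22, with 26 genes below 0 and 18 above, beside -0.19 over all tested features and -0.11 over the named genes alone. In the authors' table the same medians were -0.15, -0.06 and -0.02. No shift of the set was tested. The zero depends on the scaling. The 75th percentile was higher in the AEPS arrays (signals of 575 and 488) than in the controls (401 and 287). The spike-in medians were 13.51 and 13.40 in controls and 13.45 and 13.54 with AEPS (log2). Aligning arrays on their spike-in probes instead of the 75th percentile adds 0.61 to the log2 change of every member alike. The median of all features then stood at 0.42 and 13 members lay below 0. On the spike-in scale Tk1, Cdc6 and Mcm5 stayed below 0 at -0.84, -0.80 and -0.27 without passing (adjusted p = 0.0719, 0.0861 and 0.462, limma). Orc6, Cdc45 and Rpa3 passed there as higher, beside 14.2% of all features, and 0 members passed as lower, beside 0.490%. Of the 15 falls called with the block, Rfc3 (0.06) and Rpa1 (0.0008) were not below 0 on that scale. Nor were Mcm10 (0.33), Rfc5 (0.23) and Chaf1a (0.31), which were called lower in the table but not on the scanner values. All directions below are relative to the 75th percentile unless another scale is named.

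**Figure D1:**
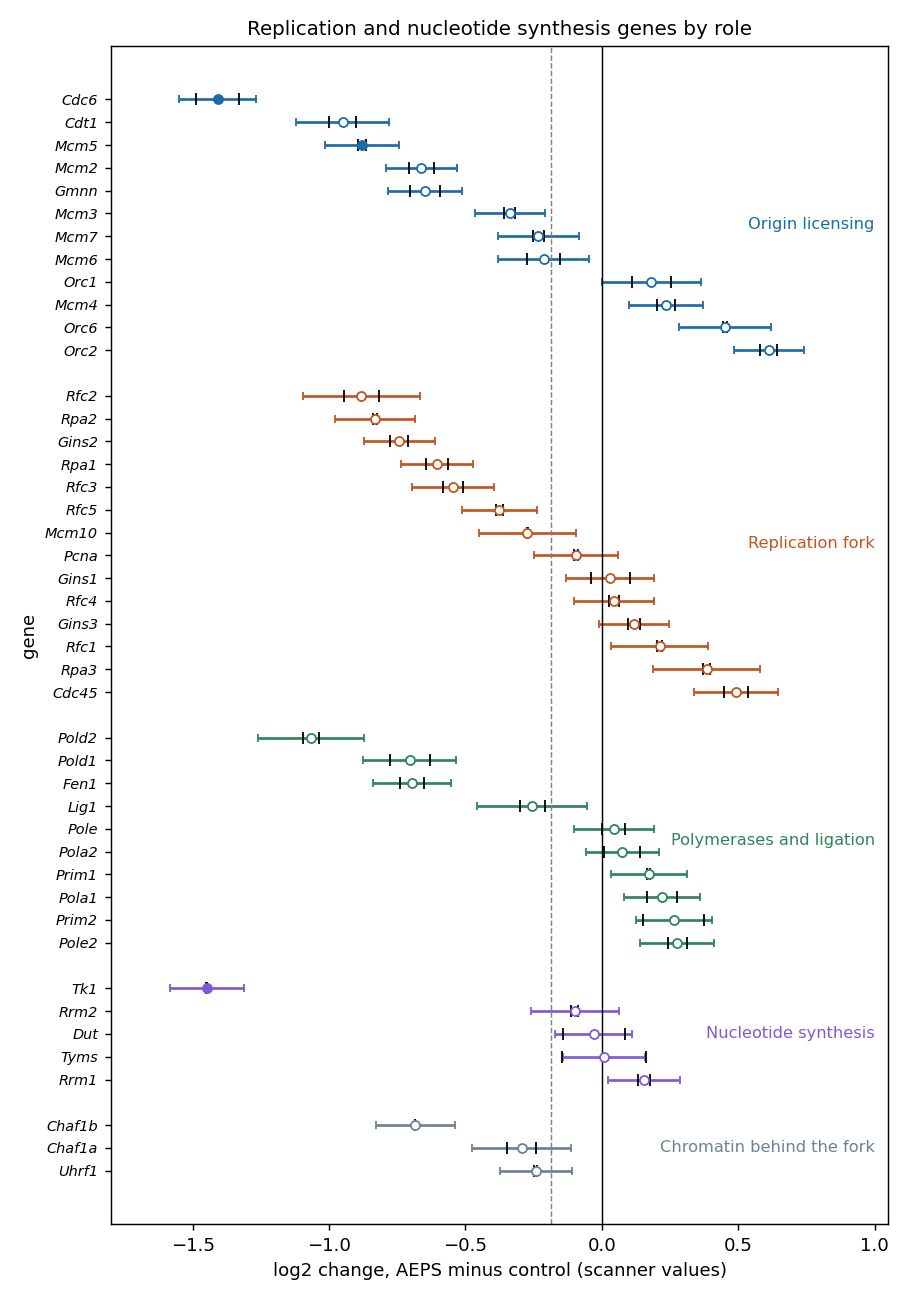
Log2 change of each of the 44 genes, AEPS minus control, on the scanner values, grouped by role. Circles are limma estimates with the moderated standard error (2 distinct arrays per group), filled where the adjusted p was below 0.05, black ticks are the changes on slide 1 and slide 2, and the dashed line is the median of all tested features at -0.19. Tk1, Cdc6 and Mcm5 are the filled points, and within licensing, fork and polymerase genes the estimates run from clear falls to values above 0.

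**Figure D2:**
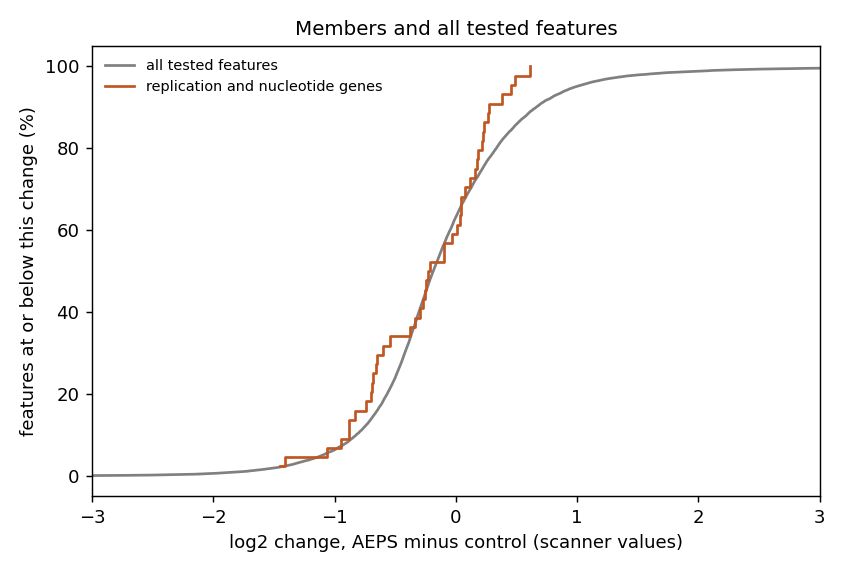
Cumulative percentage of the 44 genes (orange steps) and of all 25930 tested features (grey line) at or below a given log2 change, AEPS minus control, scanner values. The curves lie close near the middle, at medians of -0.22 and -0.19, and the genes stay within -1.45 to 0.61.

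Among the licensing genes the loading factors and their inhibitor were lower, Mcm2 and Mcm5 of MCM2-7 were lower, and Orc2 and Orc6 of ORC were higher, as called with the block and in the table. The median over the 12 genes was -0.29. In the main fit 2 passed, both lower. With the block 5 fell and 2 rose, and 5 fell and 3 rose in the table.

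Cdc6, the ATPase that loads the MCM ring together with Cdt1, stood at 2.49 and 2.50 times the array's 75th percentile in controls and at 0.888 and 0.995 with AEPS. The groups were far apart and the slides alike, with log2 changes of -1.49 and -1.33. The change was -1.41 ± 0.14 (limma's moderated SE, adjusted p = 0.0271). In the table Cdc6 read 9.92, 9.82 and 10.0 in controls and 8.36, 8.57 and 8.64 with AEPS, all 3 below every control. The dimmer Cdc6 probe, 2183 bases further along the gene, gave log2 changes of -2.54 on slide 1 and -1.55 on slide 2. Its controls differed from each other, at 0.676 and 0.313 times the 75th percentile, against 0.116 and 0.107 with AEPS.

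Cdt1, the partner of Cdc6 in helicase loading, had 72.3 and 87.0 times the 75th percentile in controls and 38.7 and 43.6 with AEPS. Its log2 change of -0.95 ± 0.17 missed the threshold in the main fit (adjusted p = 0.0574) and passed with the block (adjusted p = 0.0336). The table gave 14.56, 14.66 and 14.54 against 13.72, 13.74 and 13.59, a fall of 0.903 on the log2 scale (adjusted p = 0.00107). Gmnn, which encodes geminin, the inhibitor of Cdt1, read 10.69, 10.69 and 10.89 in the table's controls and 10.09, 10.02 and 10.37 with AEPS. It fell with the block (log2 change -0.65, adjusted p = 0.0374) and in the table (-0.60, adjusted p = 0.0159), where it missed without AEPS replicate 2 (adjusted p = 0.0571). Both the loader and its inhibitor were thus lower in every AEPS sample than in any control. The dimmer probe on the opposite strand gave -1.54.

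The MCM2-7 helicase is a ring of 6 different subunits, and its 6 transcripts gave log2 changes from -0.88 to 0.23. Mcm5 stood at 99.9 and 105 times the 75th percentile in controls and at 53.8 and 57.8 with AEPS, a log2 change of -0.88 ± 0.14 (adjusted p = 0.0466), and in the table at 15.01, 14.90 and 14.94 against 14.20, 14.15 and 14.08. Mcm2 fell with the block (-0.66, adjusted p = 0.0366) and in the table (-0.62, adjusted p = 0.00457). Mcm4 stood on the other side: its table values of 13.59, 13.51 and 13.62 in controls lay below 13.82, 13.80 and 13.84 with AEPS, a rise of 0.25 (adjusted p = 0.0359), while the scanner change of 0.23 passed neither without the block (adjusted p = 0.305) nor with it (adjusted p = 0.0999). The table's call of Mcm4 was lost without any 1 of the 6 columns (adjusted p = 0.063 to 0.12). Mcm3 (-0.34), Mcm7 (-0.23) and Mcm6 (-0.21) passed in none of these 3 fits, and Mcm3 did in the table with the block (adjusted p = 0.0199). Mcm6, the brightest licensing probe that did not pass, read 142 and 171 times the 75th percentile in controls and 128 and 141 with AEPS, and its groups overlapped in the table. The gap between Mcm4 and Mcm5 was 1.09 and 1.13 log2 units on the slides and 1.04, 1.04 and 1.08 in the table's same-numbered columns, a difference that no scaling of whole arrays alters. These genes were picked as the extremes of the complex after their values were seen.

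Among the ORC transcripts 2 of 3 were called higher with the block and in the table, beside 13.0% and 17.0% of all features. Orc2 stood at 0.811 and 0.794 times the 75th percentile in controls and at 1.21 and 1.24 with AEPS, and rose with the block (0.61, adjusted p = 0.0370) and in the table (0.59, adjusted p = 0.00622). In the main fit its adjusted p was 0.0700. Orc6 rose with the block (0.45, adjusted p = 0.0445) and in the table (0.40, adjusted p = 0.00888), where its controls read 12.33, 12.40 and 12.37 and the AEPS samples 12.76, 12.84 and 12.71. Orc1, an ATPase subunit of the complex, gave 0.18 with overlapping groups and passed in the table with the block alone (adjusted p = 0.0396). On the spike-in scale Orc2 did not pass (adjusted p = 0.0513).

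**Figure D3:**
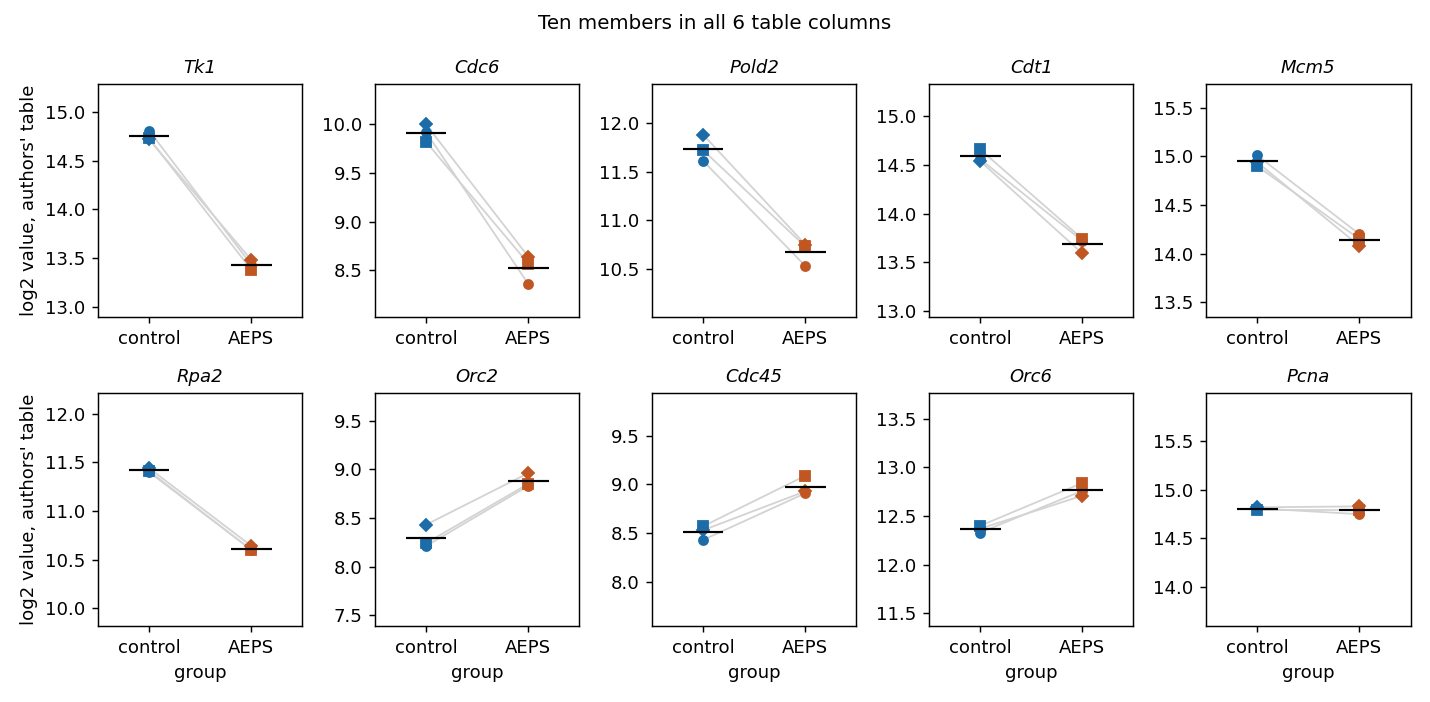
Log2 values of 10 genes in the authors' deposited table, 3 control and 3 AEPS columns. Marker shapes and grey lines join columns with the same replicate number and black bars are group means, and the genes were picked after their values were seen. Tk1, Cdc6, Pold2, Cdt1, Mcm5 and Rpa2 lie lower in every AEPS column than in any control, Orc2, Cdc45 and Orc6 lie higher, and the Pcna groups overlap.

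Among the fork genes 5 fell and Cdc45 rose with the block, and the median was -0.18 over 14 genes. None passed in the main fit by limma (6 at an unadjusted p below 0.05), and 7 fell and 1 rose in the table.

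Cdc45, which joins the MCM ring to make the active helicase, stood at 0.940 and 1.02 times the 75th percentile in controls and at 1.28 and 1.48 with AEPS. It rose with the block (0.49, adjusted p = 0.0446) and in the table (0.47, adjusted p = 0.0104). Gins2, a subunit of the GINS complex that holds Cdc45 to the ring, went the other way. It had 11.4 and 11.6 in controls and 6.68 and 7.12 with AEPS, a log2 change of -0.74 that passed with the block (adjusted p = 0.0348) and in the table (adjusted p = 0.00134), and its adjusted p in the main fit was 0.0568. The other GINS subunits measured, Gins1 (0.03) and Gins3 (0.12), passed in none of these 3 fits. Mcm10, a factor for helicase activation, fell in the table (-0.30, adjusted p = 0.0472) but not on the scanner values (-0.27, adjusted p = 0.0762 with the block). In the table it passed in only 1 of the 6 runs that left out a column, with adjusted p up to 0.122.

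RPA, the trimer that coats single-stranded DNA, had the widest range of the 10 complexes compared on the scanner values. Rpa2, its middle subunit, read 11.40, 11.41 and 11.44 in the table's controls and 10.60, 10.60 and 10.64 with AEPS, a fall of 0.803 on the log2 scale (adjusted p = 0.000716), and it also fell with the block (-0.83, adjusted p = 0.0336). Rpa1, the large subunit, fell with the block (-0.60, adjusted p = 0.0379) and in the table (-0.54, adjusted p = 0.00578). Its second probe gave -0.59. Rpa3, the small subunit, lay above 0 at 0.38, with 25.2 and 30.6 times the 75th percentile in controls and 32.6 and 40.4 with AEPS, and missed the threshold with the block (adjusted p = 0.0519) and in the table (adjusted p = 0.0589), but passed in the table with the block (adjusted p = 0.0104). The gap between Rpa3 and Rpa2 was 1.19 and 1.24 on the slides and 1.12 to 1.19 in the table.

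In the clamp loader RFC, 3 of 5 subunits fell in the table and 2 with the block, beside 16.4% and 16.8% of all features. Rfc2 stood at 20.4 and 27.0 in controls and at 11.6 and 14.0 with AEPS, and fell with the block (-0.88, adjusted p = 0.0341) and in the table (-0.84, adjusted p = 0.00216). Rfc3 fell with the block (-0.55, adjusted p = 0.0399) and in the table (-0.55, adjusted p = 0.00655). Rfc5 fell in the table (-0.31, adjusted p = 0.0259) but not on the scanner values with the block (adjusted p = 0.0528). In the table Rfc5 passed in only 1 of the 6 runs that left out a column (adjusted p up to 0.0884). Rfc1, the large subunit, gave 0.21 and passed in the table with the block alone (adjusted p = 0.0310), and Rfc4 gave 0.04 and passed in none. The clamp that RFC loads did not differ detectably: Pcna read 86.2 and 96.4 in controls and 80.3 and 90.6 with AEPS, overlapping groups with a log2 change of -0.10 ± 0.15 (adjusted p = 0.692). In the table its groups overlapped too, at 14.81, 14.79 and 14.82 against 14.75, 14.79 and 14.83.

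**Figure D4:**
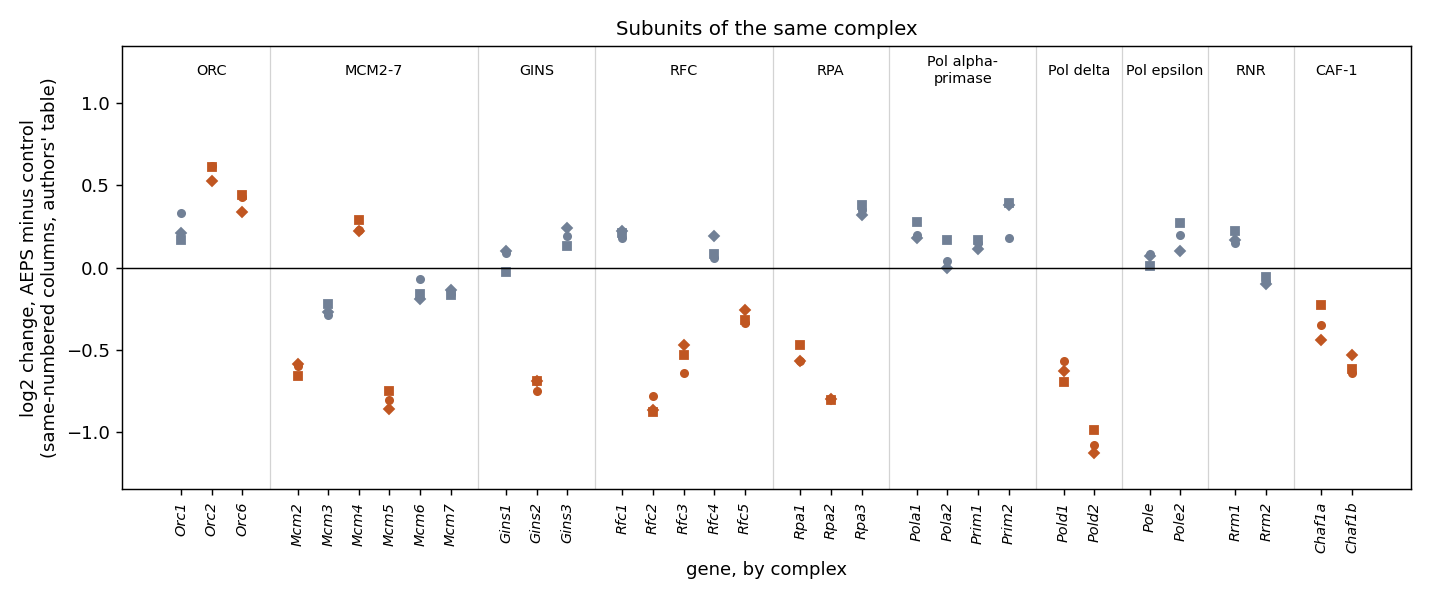
Log2 change, AEPS minus control, between same-numbered columns of the authors' table for the subunits of 10 complexes (circle, square and diamond for replicates 1, 2 and 3). Orange marks genes past an adjusted p of 0.05 in the table without the block and grey the rest. On the table's own scale, MCM2-7, GINS, RFC and RPA hold subunits on both sides of 0, both measured subunits of polymerase delta lie below 0, and those of polymerases alpha and epsilon lie at or above it.

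Among the polymerase genes, both subunits of DNA polymerase delta and Fen1 fell with the block and in the table, and no other gene passed in these fits. Of all features 16.8% were called lower with the block and 16.4% in the table. None of the 10 passed in the main fit by limma (3 did at an unadjusted p below 0.05), their median was 0.06, and 6 lay above 0. Pold2, the second subunit of DNA polymerase delta, which copies mainly the lagging strand, stood at 8.41 and 10.1 times the 75th percentile in controls and at 3.93 and 4.92 with AEPS. That is 47.8% of control and a log2 change of -1.07 ± 0.20, which missed the threshold in the main fit (adjusted p = 0.0587) and passed with the block (adjusted p = 0.0336) and in the table (adjusted p = 0.00168). Pold1, the catalytic subunit, read 33.5 and 40.8 in controls and 21.6 and 23.9 with AEPS, and it fell with the block (-0.70, adjusted p = 0.0374) and in the table (-0.63, adjusted p = 0.00290).

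Fen1, the nuclease that trims primer flaps from Okazaki fragments, was the third gene of the group to fall. It had 90.2 and 95.3 in controls and 54.0 and 60.6 with AEPS, with an adjusted p of 0.0678 in the main fit, 0.0356 with the block and 0.00188 in the table. Lig1, the ligase that joins the trimmed fragments, gave -0.26 with overlapping scanner groups and passed in the table with the block alone (adjusted p = 0.0311). The genes of polymerase alpha-primase, Pola1 (0.22), Pola2 (0.08), Prim1 (0.17) and Prim2 (0.26), and of polymerase epsilon, Pole (0.04) and Pole2 (0.28), gave values above 0 and passed neither with the block on the scanner values nor in the table. In the table with the block Pola1 (adjusted p = 0.0334) and Prim2 (adjusted p = 0.0315) passed as higher. No difference between the enzymes was tested. Pole, the catalytic subunit of the leading-strand enzyme, read 12.09, 12.12 and 12.12 in the table's controls and 12.17, 12.13 and 12.19 with AEPS.

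In nucleotide supply the fall was that of Tk1 alone among the 5 genes. Tk1, the cytosolic thymidine kinase that salvages thymidine in dividing cells, stood at 86.4 and 92.5 times the 75th percentile in controls and at 31.6 and 34.0 with AEPS. Its log2 change of -1.45 ± 0.14 (adjusted p = 0.0257) was the lowest of all 44 members in the main fit, while in the table, after quantile normalization and with the mean of a gene's probes Cdc6 was lower, and 2.16% of all tested features lay lower. In the table it read 14.81, 14.73 and 14.72 against 13.43, 13.38 and 13.48, a fall of 1.32 on the log2 scale (adjusted p = 0.000261). The other genes stayed close to control. Rrm2, the small subunit of ribonucleotide reductase, had 53.4 and 60.6 in controls and 49.4 and 57.1 with AEPS, overlapping scanner groups with a change of -0.10 ± 0.16 (adjusted p = 0.695). In the table its groups did not overlap, at 14.16, 14.19 and 14.16 against 14.07, 14.13 and 14.06, a change of -0.08. Rrm1, the large subunit, gave 0.16 ± 0.13, Dut, the dUTPase that keeps uracil out of DNA, gave -0.03 ± 0.14, and Tyms, thymidylate synthase, gave 0.01 ± 0.15. The Tyms probe was dim, at 0.54 and 0.62 times the 75th percentile in controls. Its slides differed in sign (0.16 and -0.15), and its change in the table was 0.19. None of these 4 passed in the main fit, with the block or in the table. Rrm1 passed only in the table with the replicate block (adjusted p = 0.0448), where 32 of the 44 members and 49.8% of all features did.

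Among the genes of chromatin behind the fork, both CAF-1 subunits fell in the table and 1 of them with the block. Of all features 16.4% were called lower in the table and 16.8% with the block. Chaf1b, the middle subunit of the histone chaperone CAF-1, had 39.7 and 43.7 in controls and 24.7 and 27.2 with AEPS, and fell with the block (-0.68, adjusted p = 0.0349) and in the table (-0.60, adjusted p = 0.00192). Its second probe gave -0.92. Chaf1a, the large subunit, fell in the table (-0.34, adjusted p = 0.0452), a call lost without any 1 of the 6 columns (adjusted p = 0.0546 to 0.112), and missed on the scanner values with the block (-0.29, adjusted p = 0.0817). Uhrf1, which recognises hemimethylated DNA behind the fork, was the brightest of the group that did not pass. It read 55.0 and 57.5 in controls and 46.3 and 48.8 with AEPS, a change of -0.24 ± 0.13 (adjusted p = 0.279), and passed in the table with the block alone (adjusted p = 0.0332). The dimmer Uhrf1 probe over the splice junction gave -1.10, from 1.71 and 1.98 in controls to 0.787 and 0.936 with AEPS, so the probes of this gene differed by 0.856 log2 units.

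**Figure D5:**
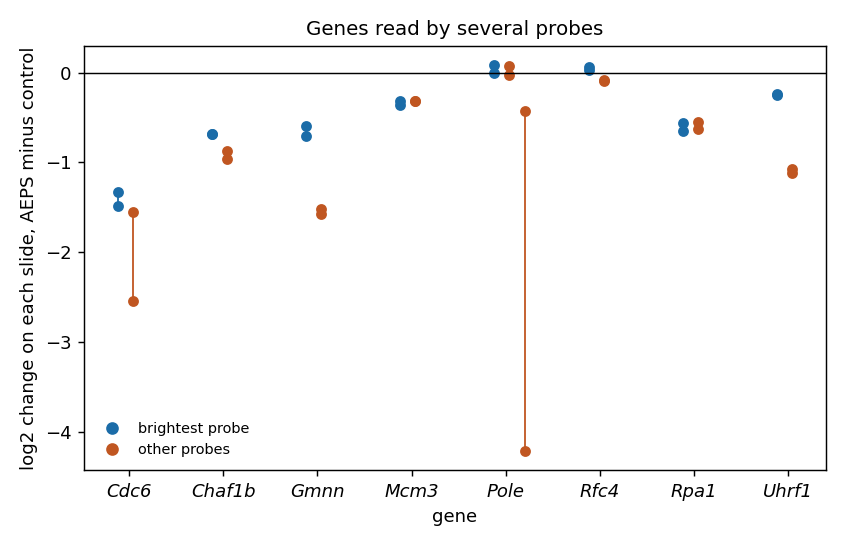
Log2 change on slide 1 and slide 2, AEPS minus control, of every probe of the 8 member genes read by more than 1 probe. Blue points joined by a line are the gene's brightest probe and orange points its other probes. Mcm3, Rpa1 and Rfc4 have probes within 0.13 log2 units of each other, while Gmnn and Uhrf1 have probes more than 0.85 apart, and the third Pole probe spans -4.21 to -0.43.

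Of the 44 genes, 8 had several probes. The third Pole probe is the widest exception. It had signals of 127 and 15.2 in controls and 9.80 and 19.1 with AEPS, was well above background on only 1 of the AEPS arrays, and gave a mean change of -2.32 where the other Pole probes gave 0.04 and 0.03. Only the first control array was high, and the 3 remaining signals lie between 9.80 and 19.1. The 36 genes with 1 probe have no such check, and Tk1 and Mcm5 are among them.

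Other genes of the same pathways were read from a wider list of 82, of which 80 were tested. Rrm2b and Asf1a missed the filter on dim probes. The main fit called 3 of the 80, or 3.75%, beside 7.11% of all features. Called higher were 2.50% and lower 1.25%, beside 4.17% and 2.94% of all features. The median of the 80 was -0.05. Top1, the topoisomerase that relaxes DNA ahead of forks and transcription, rose by 1.48 ± 0.17 (adjusted p = 0.0321). Gmps, the GMP synthetase of purine synthesis, rose by 1.38 ± 0.14 (adjusted p = 0.0274), but the mean of its probes changed by 0.20 and did not pass (adjusted p = 0.699). Tonsl, which acts in the repair of stalled forks, fell by 1.17 ± 0.16 on the log2 scale (adjusted p = 0.0403), and on the spike-in scale its change was -0.56 (adjusted p = 0.124). With the block 25 of the 80 passed, 12 higher and 13 lower, or 15.0% and 16.2%, beside 13.0% and 16.8% of all features. From the table's columns, 41 passed, 19 higher and 22 lower, or 23.8% and 27.5%, beside 17.0% and 16.4%.

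Promoters of the members were searched for short sequence motifs. RefSeq windows of 300 bases (250 before and 50 after the annotated start, build GRCm38.p6) were held for 37 of the 44 genes, 44 windows in all. The E2F-type motifs searched, on both strands, were TTTCCCGC, TTTGGCGC, TTTCGCGC and TTTGCCGC. At least 1 of them occurred in 14 member windows, each of a different gene, or 31.8%, beside 2.26% of all 32851 windows. The cell cycle homology region motif TTTGAA occurred in 11.4% of member windows and 17.9% of all, and CCAAT in 61.4% and 37.4%. A match is a string of letters and not a bound site. The 14 genes with an E2F-type motif had a median log2 change of -0.25 and the 23 without had -0.10. With the block 5 of the 14 fell (Cdc6, Cdt1, Mcm5, Pold1 and Rfc3) and 7 of the 23 (Tk1, Mcm2, Rpa1, Rpa2, Pold2, Fen1 and Chaf1b). In that fit 34.1% of the 44 members and 16.8% of all features were called lower. No difference by motif was tested. Within roles the order varied: the median was -0.34 with a motif and 0.45 without among licensing genes, -0.21 and -0.10 among fork genes, -0.02 and -0.31 among polymerase genes, and -0.24 and -0.49 among chromatin genes, in groups of 1 to 9 genes.

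The windows of the genes with the lowest changes in different roles are printed 5′ to 3′ on the gene's strand, with every searched motif in capitals.
Cdc6, chr11:98907901-98908200, plus strand: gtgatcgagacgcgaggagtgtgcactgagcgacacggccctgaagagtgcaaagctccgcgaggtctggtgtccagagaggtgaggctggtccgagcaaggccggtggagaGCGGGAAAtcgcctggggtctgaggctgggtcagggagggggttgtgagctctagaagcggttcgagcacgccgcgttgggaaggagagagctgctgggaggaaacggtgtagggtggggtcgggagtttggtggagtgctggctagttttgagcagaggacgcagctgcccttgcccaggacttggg
Tk1, chr11:117825965-117826264, minus strand: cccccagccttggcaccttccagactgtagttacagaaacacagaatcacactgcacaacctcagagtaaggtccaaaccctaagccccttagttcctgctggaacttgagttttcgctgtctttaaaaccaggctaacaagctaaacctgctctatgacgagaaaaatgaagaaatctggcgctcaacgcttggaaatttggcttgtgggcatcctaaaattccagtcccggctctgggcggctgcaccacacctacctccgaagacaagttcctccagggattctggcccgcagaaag
The Cdc6 window holds 1 motif, the reverse complement of TTTCCCGC, at -138 to -131 from the annotated start. The Tk1 window holds none of the letters searched.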

How the data were processed

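RNA was copied to Cy3-labelled cRNA, per the labels' protocols. The authors' scanner files, from Agilent Feature Extraction per the file headers, hold spot intensity values that were background-subtracted and spatially detrended, with no normalization between arrays. The authors' deposited table holds log2 values whose sorted columns differed by at most 0.01, so they are quantile normalized, with an unstated offset. Its replicate 1 columns match the scanner files of replicates 1 and 2, its replicate 2 columns those of replicate 3, and its replicate 3 columns match no scanner file used here.

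Flagged spots were set to missing. The processed signal was put on a log2 scale and the array's 75th percentile was subtracted. In signal units that percentile was 401 and 287 in the control arrays and 575 and 488 in the AEPS arrays. Probes entered the tests where all arrays of either group were well above background, and a gene was read by its brightest tested probe. Of 55681 probes, 26582 were named through RefSeq accessions, 4818 by the scanner annotation alone and 24281 not at all, and of the 53 member probes 49 had a RefSeq accession, with 0 conflicts. limma 3.58.1 (lmFit, eBayes) in R 4.3.3 was run on 25930 features, with Benjamini-Hochberg adjustment over all of them at 0.05. It was also run on simulated data with independent noise. That simulation had no slide effect and no block, so it cannot test the fits with a block. Fits with the slide or the replicate number as a block, on the table and under other scalings, filters and left-out samples were alternatives.

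Same-numbered samples deviated together from their group means (correlations of 0.55, 0.35 and 0.39 in the table, against -0.48 to 0.23 for other pairs, and 0.59 for the slides). On this basis the numbers were used as pairs. With 2 arrays per group the slide values must mirror each other (0.59 and -0.59). Pairs 1 and 2 of the table come from these same arrays. Deviations from a group mean cancel out over its columns, so the value of pair 3 (0.39) is tied to the others. It is not separate evidence for the pairing.

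The members, lists and naming rule were chosen with earlier results of these data known. All 44 members were named, with values on each array for those past the threshold and for the brightest of each role that did not pass. Array values of members called only with the block or in the table, beyond that rule, and the pairs of subunits compared, were chosen with their values in view. Of the wider list, members past the threshold in the main fit were named.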

Additional observations from a re-analysis of the deposited data

How the results depend on the processing

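Members past the threshold numbered 3 in the main fit, 18 with the slide as a replicate block, 22 in the authors' table, 32 there with the block, 12 after normexp, 14 after quantile normalization, 7 among probes above background on every array, and 0 with no filter on dim probes (16 at an unadjusted p below 0.05, limma) or without any 1 array (7 to 14). In the table without 1 column 17 to 19 members passed. For the wider list the main count of 3 became 25, 41, 50, 17, 13 and 5 in the same order of settings, 15 with spike-in scaling, 0 with no filter (21 at an unadjusted p) and 0 to 1 without 1 array, and 25 to 34 in the table without 1 column. All features past the threshold numbered 1844, then 7722, 8667, 12914, 4592 and 2905, with spike-in scaling 3802, with no filter 0 (7352 at an unadjusted p), without 1 array 7 to 791 and in the table without 1 column 5606 to 7453. Among probes above background on every array 2253 of 23708 features passed, where 1844 of 25930 did in the main fit. The share called higher among called features moved from 1082 of 1844 to 3675 of 3802 with spike-in scaling and to 1900 of 4592 after normexp. Spike-in scaling turned the medians of all members (0.38), licensing (0.32), fork (0.42), nucleotide (0.58) and chromatin genes (0.31) above 0 and put polymerase genes at 0.66. The licensing median was -0.21 in the table with or without the block and after quantile normalization, and -0.19 after normexp. With the mean of a gene's probes the polymerase median was -0.090 and the chromatin median -0.67. Without 1 array, medians ran from -0.30 to -0.093 for all members, -0.29 to -0.079 for fork, 0.011 to 0.11 for polymerase, -0.088 to 0.0049 for nucleotide and -0.45 to -0.20 for chromatin genes. In the table without 1 column they ran from -0.16 to -0.12 for all members, -0.16 to -0.13 for fork genes and -0.073 to 0.042 for nucleotide genes. Tk1, Cdc6 and Mcm5 stayed below 0 under every alternative, and the 15 falls called with the block did so except under spike-in scaling, where 13 did. On that scale these 13 ran from -0.84 (Tk1) to -0.04 (Gmnn), and 0 members passed as lower, beside 0.490% of all features. Mcm10, Rfc5 and Chaf1a, called lower in the table, lay above 0 under spike-in scaling. The cause of these shifts was not tested. With 4 distinct arrays, a left-out array leaves 1 lone array in its group, which is assumed to vary like the other group.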

Other observations

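Genes of the wider list outside the 44 are given here, picked after their values were seen. Cad, which catalyses the opening steps of de novo pyrimidine synthesis, fell with the block (-0.88, adjusted p = 0.0354, limma) and in the authors' table (-0.77, adjusted p = 0.00717). Dhodh, the next enzyme, fell with the block (-0.81, adjusted p = 0.0348) and in the table (-0.82, adjusted p = 0.00282), and Umps, which completes UMP, in the table (-0.30, adjusted p = 0.0239). Ctps (0.22) and Ctps2 (0.23), the CTP synthetases, lay above 0 on the scanner values and passed neither there nor in the table without the block. Among purine genes Gart (0.45, adjusted p = 0.0159), Hprt (0.55, adjusted p = 0.00761) and Adss (0.35, adjusted p = 0.0132) rose in the table, and Aprt (-0.27, adjusted p = 0.0484) and Adssl1 (-0.35, adjusted p = 0.0222) fell. Without 1 of the 6 table columns Cad, Dhodh and Hprt passed in all 6 runs, Adss in 5, Gart in 3, Umps and Adssl1 in 1 and Aprt in 0. None of the 8 called genes passed in the main fit, and on the spike-in scale Umps (0.27), Aprt (0.24) and Adssl1 (0.20) lay above 0.

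Cdc7, the catalytic subunit of the kinase that fires licensed origins, fell with the block (-0.94, adjusted p = 0.0447) and in the table (-0.55, adjusted p = 0.0470), but not in the table with the block (adjusted p = 0.0541), and it passed in 1 of the 6 runs that left out a table column. Dbf4, its activating subunit, rose with the block (0.77, adjusted p = 0.0450) and in the table (0.74, adjusted p = 0.00897). Behind the fork, the maintenance methyltransferase Dnmt1 fell with the block (-0.82, adjusted p = 0.0348) and in the table (-0.77, adjusted p = 0.00203). Top2a, a topoisomerase that untangles daughter chromosomes, rose with the block (0.78, adjusted p = 0.0357) and in the table (0.73, adjusted p = 0.00116). None of these genes passed in the main fit by limma (adjusted p = 0.0624 to 0.0832). On the spike-in scale Cdc7 (-0.34, adjusted p = 0.605) and Dnmt1 (-0.21, adjusted p = 0.480) did not pass. Dbf4 (adjusted p = 0.0399) and Top2a (adjusted p = 0.0377) passed there as higher, beside 14.2% of all features.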
